A study of Mus musculus with 5 samples.

Results

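Splenic plasma cells that lacked B220 and carried IgM were compared between cells that had taken up 2NBDG and cells that had not. The set held 1629 of the 5476 cells of the study: 558 of the 894 cells of the B220-2NBDG+ spleen library (62.4%, exact 95% binomial interval 59.1 to 65.6) and 1071 of the 1296 cells of the B220-2NBDG- spleen library (82.6%, 80.5 to 84.7). A cell entered when it held at least 10 UMIs (unique molecular identifiers, each standing for 1 captured transcript) of the 7 heavy-chain constant genes, at least 70% of them Ighm, and at most 2 UMIs summed over 10 cell cycle genes. Both groups came from unimmunized and untreated male C57Bl6/N mice, 8 to 12 weeks old, as CD138-high, Ly6g- and CD11c- cells sorted in 2 rounds. Each library was a pool of 3 mice. The other libraries of the study, used here only beside these, were spleen B220+2NBDG+, spleen B220+2NBDG- and bone marrow B220-2NBDG+ cells of the same strain and gates. Each group was 1 library, so no value below has a replicate error, no significance test was possible, and all intervals cover counting error only.

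Plasma cells are B cells that have matured to secrete antibody. As a B cell becomes one, it normally switches off B cell genes such as those of the class II antigen presentation machinery and switches on the secretory program driven by Blimp-1 and Xbp1. 2NBDG is a fluorescent analog of glucose, and its signal in a cell is read as uptake of the analog. B220 is a form of the surface protein CD45 that B cells and recently formed plasma cells display and that many mature plasma cells have lost. IgM is the isotype made before class switching, and secreted IgM is joined into polymers by the J chain.

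Few cells lay near the limits that selected them. Only 1 cell of each library lay between 70% and 75% Ighm and 0 lay between 65% and 70%. The cell cycle limit removed 0 IgM cells of the 2NBDG+ library and 9 of the 2NBDG- library. Exactly 2 cell cycle UMIs were present in 4 and 9 of the kept cells, and no IgM cell of either library held exactly 3. The kept cells had 5775697 and 11587723 UMIs in all, with a median of 10205 UMIs and 1428 genes per 2NBDG+ cell and 9952 UMIs and 1254 genes per 2NBDG- cell. The 2 libraries shared 1 cell barcode.

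The plasma cell label held in both libraries. Sdc1, which encodes CD138, stood at 525 CPM in 2NBDG+ cells and 503 CPM in 2NBDG- cells, a log2 ratio of 0.06. CPM here are UMIs per 1000000 non-immunoglobulin UMIs, and every log2 ratio is 2NBDG+ over 2NBDG-. The secretory transcription factor gene Xbp1 was at 3689 and 3218 CPM (log2 0.20), and Prdm1, which encodes Blimp-1, at 54.8 and 52.7 CPM (log2 0.06). Jchain took 25.3% and 24.9% of the non-immunoglobulin UMIs. Pax5, which maintains B cell identity, had 0 UMIs in either set of cells. Of the 18 plasma cell genes listed, all 18 could be tested and none differed 2-fold, with log2 ratios from -0.46 for the costimulatory receptor gene Cd28 to 0.31 for Edem1, a factor of protein degradation in the endoplasmic reticulum.

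Markers of other cells were low. Summed T cell markers made up 8.65 CPM in 2NBDG+ and 19.4 CPM in 2NBDG- cells, with Cd3e and Cd8a at 0 UMIs in both. Dendritic cell markers summed to 9.47 and 18.6 CPM and natural killer cell markers to 1.24 and 4.65 CPM, and 5 of 8 and 4 of 8 of these genes were at 0 in both. Macrophage markers summed to 24.7 CPM in each library, mostly Cd68, with Adgre1 at 0. Neutrophil, erythroid, mast cell and megakaryocyte markers each summed to at most 3.30 CPM. Stromal and endothelial markers summed to 30.9 and 29.2 CPM, nearly all Pecam1. The plasmacytoid dendritic cell list summed to 1639 and 1315 CPM through genes that plasma cells also express, such as Ly6c2, and its defining marker Siglech was at 0. Igha, a transcript these cells were not selected for, averaged 22.7 UMIs per IgM cell in the 2NBDG+ library and 7.49 in the 2NBDG- library, and its part in the differences below was not tested.

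One division of the libraries ran across the gates. Over IgM cells, 37 genes were at least 1.5-fold higher or lower in B220-2NBDG+ and B220+2NBDG- cells than in each of the other 3 libraries, 22 of them at least 2-fold. They include ribosomal pseudogenes, predicted genes, histone genes and genes of ATP synthase subunits. Rps18-ps3 stood at 91.9 and 247 CPM in those libraries against 5.53 to 14.8 CPM in the others. Nme2, which encodes a nucleoside diphosphate kinase, was at 49.8 and 19.0 CPM against 188 to 273 CPM. The division crosses the 2NBDG comparison, so for these genes it and 2NBDG cannot be told apart, and counts are given with and without them.

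Few genes differed 2-fold between 2NBDG+ and 2NBDG- IgM cells. A gene was tested when the library with more of it held at least 25 CPM and 50 UMIs. Of 3679 such genes, 35 (0.951%) were at least 2-fold higher in 2NBDG+ cells and 52 (1.41%) at least 2-fold lower, and the median log2 ratio was 0.00. Without the 37 genes of the library division, 23 of 3644 (0.631%) were higher and 31 (0.851%) lower. The immunoglobulin share of UMIs was 58.0% in 2NBDG+ and 64.8% in 2NBDG- cells, so that all UMIs as the total moved every log2 ratio up by 0.25. Within that share, kappa variable transcripts took 1.24% and 6.35% of UMIs. Their share follows the library division, so all UMIs as the total is not independent of the division. The same 3679 genes then split into 67 higher and 42 lower. Where the 25 CPM minimum was also read on that total, 1773 genes could be tested and 40 were higher and 21 lower. Among the genes higher in 2NBDG+ cells were Slpi, Trf and the metallothionein genes Mt1 and Mt2. Among the lower ones were the B cell genes Blk, Fcmr, Ebf1 and Ms4a1, and Ltb, Apoe, Plac8 and Cd52.

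**Figure D1:**
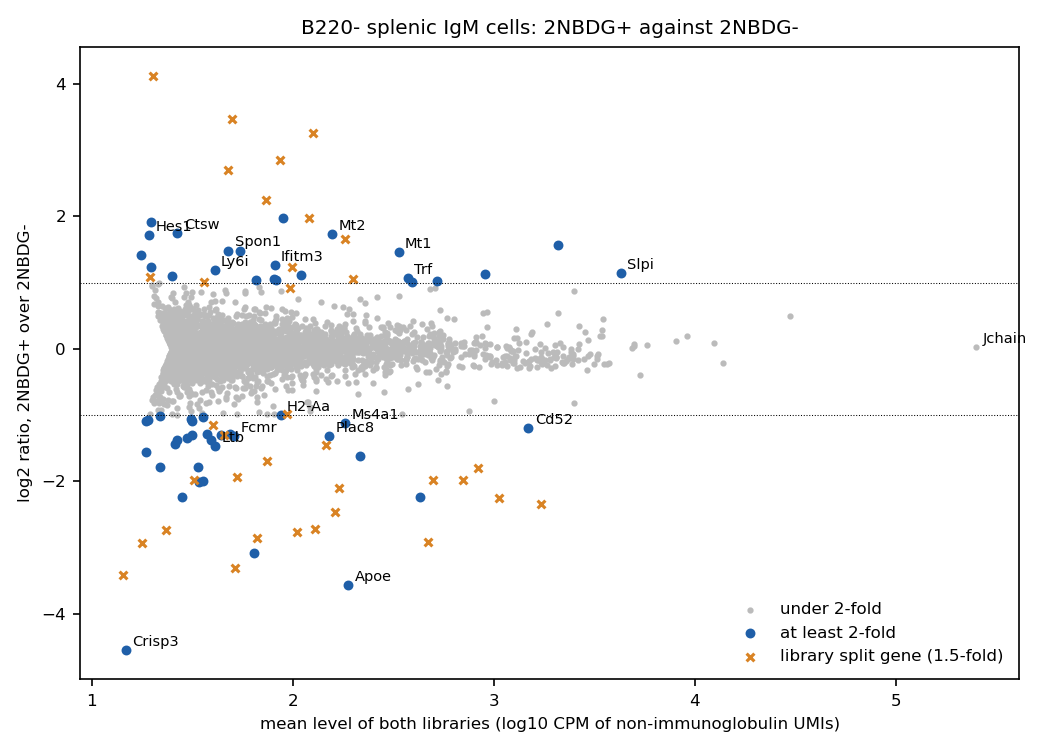
Each point is 1 of the 3679 tested genes in B220- splenic IgM cells, by its mean level (log10 CPM of non-immunoglobulin UMIs) and its log2 ratio of 2NBDG+ over 2NBDG-. Blue points are at least 2-fold apart, orange crosses are genes of the library division at 1.5-fold, and dotted lines mark 2-fold. Most genes lie near 0, Slpi (log2 1.14) is the most abundant blue gene, and Apoe and Crisp3 are the lowest blue genes.

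Slpi, which encodes a secreted inhibitor of serine proteases, had the most UMIs of the genes at least 2-fold higher. It lies on chromosome 2 from 164354070 to 164389095 (GRCm38). Slpi was at 5921 CPM in 2NBDG+ cells (14374 UMIs) and 2693 CPM in 2NBDG- cells (10991 UMIs), a 2.20-fold difference (2.14 to 2.25). Trf, the gene of the iron carrier transferrin, was at 505 and 241 CPM, 2.1-fold higher (1.93 to 2.29). The membrane protein genes Tmem176a and Tmem176b, which are neighbours on chromosome 6, were close to the same size of difference without reaching it. Tmem176a was at 666 and 353 CPM (1.89-fold, 1.76 to 2.03) and Tmem176b at 630 and 338 CPM (1.87-fold, 1.73 to 2.01). Spon1, a secreted matrix protein gene, was at 70.4 and 25.2 CPM, 2.79-fold higher (2.17 to 3.60).

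Metallothioneins are small cysteine-rich proteins that bind zinc and copper. Mt1 had 494 CPM in 2NBDG+ cells and 181 CPM in 2NBDG- cells, a 2.74-fold difference (2.50 to 3.0). Mt2 had 241 and 72.8 CPM, 3.32-fold higher (2.88 to 3.83). Both genes thus stood higher in the 2NBDG+ library, and both kept at least 2-fold in each of 12 alternative settings. Their neighbours in the list of metal and oxidative stress genes did not share this. The ferritin light chain gene Ftl1 was at 4916 and 4890 CPM (log2 0.01), Hmox1, which encodes heme oxygenase, had only 17 and 20 UMIs, and Gclm, a subunit of the enzyme that starts glutathione synthesis, was at 28.4 and 69.3 CPM (log2 -1.29). In B220+ IgM cells Gclm stood the other way, at 43.3 and 31.1 CPM (log2 0.48). It was thus lowest in the libraries set apart by the division, without counting among the genes of the division. Of 16 genes of this list, 9 could be tested, with a median log2 ratio of 0.01. Of these, 2 were 2-fold higher (0.951% of all tested genes were) and 1 lower (1.41% were).

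Since Mt1 and Mt2 lie side by side and moved together, their promoters are shown, from 250 bases before to 50 bases after the annotated start (RefSeq, GRCm38.p6, plus strand). Metallothionein genes are known to be switched on by the zinc-sensing factor MTF-1 through metal response elements, whose core is written here as TGCACNC or TGCGCNC. Capitals mark each match on either strand, and no matches overlapped.
Mt1, chr8:94178839-94179138: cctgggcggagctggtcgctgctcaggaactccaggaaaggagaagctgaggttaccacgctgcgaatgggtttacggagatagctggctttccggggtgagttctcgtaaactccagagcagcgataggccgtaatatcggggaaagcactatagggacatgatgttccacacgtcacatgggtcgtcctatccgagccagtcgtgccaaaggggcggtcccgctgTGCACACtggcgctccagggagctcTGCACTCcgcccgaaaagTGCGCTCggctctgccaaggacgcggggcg
Mt2, chr8:94172368-94172667: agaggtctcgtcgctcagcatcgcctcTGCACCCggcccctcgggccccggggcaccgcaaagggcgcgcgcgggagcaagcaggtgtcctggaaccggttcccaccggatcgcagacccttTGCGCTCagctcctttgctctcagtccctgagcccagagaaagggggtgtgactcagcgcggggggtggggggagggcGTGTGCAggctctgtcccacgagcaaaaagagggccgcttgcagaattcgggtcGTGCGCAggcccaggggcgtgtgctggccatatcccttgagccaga
The Mt1 window held 3 matches, all on the strand shown, and the Mt2 window 4, of which 2 were on the strand shown and 2 on the other. Among 32851 promoter windows of this length, 25.7% held at least 1 match, 1.97% at least 3 and 0.517% at least 4. These matches describe the sequence and are no measurement of binding.

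Other genes were at least 2-fold higher as well. Ifitm3, an interferon-induced membrane protein gene that restricts viral entry, was at 115 and 47.8 CPM (2.41-fold, 2.00 to 2.90). Ctsw, a cysteine protease gene best known from cytotoxic lymphocytes, was at 41.2 and 12.2 CPM (100 and 50 UMIs, 3.36-fold, 2.37 to 4.82). Hes1, a transcriptional repressor gene downstream of Notch, was at 29.7 and 9.06 CPM (72 and 37 UMIs, 3.27-fold, 2.17 to 5.0). Hes1 came from few cells: the 5% of 2NBDG+ cells with the most Hes1 held 90.3% of its UMIs, and with each gene capped at its 99th percentile over cells the log2 ratio was 0.79 instead of 1.71. Further members were the surface antigen gene Ly6i (56.8 and 25 CPM, log2 1.19), Cdk2ap1, whose product binds the kinase CDK2 (31.3 and 8.33 CPM, log2 1.91), the Wnt co-receptor Ryk (27.6 and 11.8 CPM, log2 1.23) and the fibrinogen-like gene Fgl2 (25.5 and 9.55 CPM, log2 1.42). Nmt1, which attaches myristate to proteins, was at 80.7 and 28.9 CPM (log2 1.48), and Cox17, a copper chaperone of cytochrome oxidase, at 525 and 261 CPM (log2 1.01). Not all of these genes were higher by 2NBDG between B220+ IgM cells. Nmt1 was at log2 -0.50 there, Fgl2 at -0.24 and Cdk2ap1, below the level needed for testing, at -0.59. Ifitm3 was above 0 there, as were Ctsw, Hes1, Ly6i and Ryk, these 4 below the level needed for testing. The ribosomal protein genes Rps28 (3115 and 1057 CPM, log2 1.56) and Rpl24 (1237 and 565 CPM, log2 1.13) and the ribonuclease gene Rnaset2b (143 and 36.3 CPM, log2 1.98) were also past 2-fold, but between B220+ IgM cells they stood the other way, at -0.41, -1.01 and -1.10. These 3 genes have near-identical copies elsewhere in the genome, so their values are uncertain, and how reads were divided among copies was not tested.

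Genes of B cells were lower in 2NBDG+ cells. Ms4a1, which encodes the B cell surface protein CD20 (chromosome 19, 11249675 to 11266241), was at 115 CPM in 2NBDG+ and 251 CPM in 2NBDG- cells, 2.18-fold lower (1.91 to 2.50). Fcmr, the Fc receptor for IgM, was at 29.2 and 73.0 CPM (2.50-fold lower, 1.92 to 3.28), and Ebf1, a transcription factor of early B cells, at 25.5 and 62.7 CPM (2.46-fold lower, 1.85 to 3.30). The kinase gene Blk of the B cell receptor pathway was at 16.9 and 42.9 CPM (2.54-fold lower, 1.80 to 3.66), and the activation marker Cd83 at 23.5 and 47.8 CPM (2.03-fold lower, 1.51 to 2.78). Components of the receptor itself differed little: Cd79a was at 1189 and 1344 CPM (log2 -0.18) and Cd79b at 628 and 756 CPM (log2 -0.27). Of 21 B cell identity genes, 13 could be tested, 12 lay below 0 (50.3% of all tested genes did) and 5 were 2-fold lower (1.41% of all tested genes were). None was 2-fold higher, and the median log2 ratio was -0.40, against 0.00 over all tested genes. With all UMIs as the total the median of the same 13 genes was -0.14, where that of all genes moved up by 0.25, and it was 0.01 over the 8 that could still be tested. In that setting only Fcmr of the 5 kept its call. Ms4a1 was at log2 -0.87 and Cd83 at -0.77, while Blk and Ebf1 stayed past 2-fold but fell below the level needed for testing. Ptprc, the gene of CD45 and so of B220, was at 41.6 and 57.6 CPM (log2 -0.47), and 3' counts do not separate its forms.

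Class II genes, which present peptides to helper T cells, lay lower by smaller amounts. H2-Ob, a modulator of peptide loading, was at 21.8 and 53.2 CPM (2.44-fold lower, 1.80 to 3.35). H2-Aa was at 58.1 and 116 CPM, 2.00-fold lower (1.66 to 2.44), which sits on the threshold and fell short of it in 6 of 12 alternative settings. H2-Eb1 was at 86.9 and 151 CPM (log2 -0.80), H2-DMa at 34.6 and 58.5 CPM (log2 -0.76) and H2-Ab1 at 421 and 536 CPM (log2 -0.35). Cd74, the invariant chain and the most abundant of the group, was at 12838 and 14963 CPM (log2 -0.22). Of 10 class II genes 6 could be tested, 2 of them were 2-fold lower, where 1.41% of all tested genes were, and the median was -0.78. With all UMIs as the total the median of the same 6 genes was -0.52, and it was -0.32 over the 4 that could still be tested. Ciita, the master regulator of this group, had 0 UMIs in both sets of cells.

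Other genes on the lower side had varied products. Apoe, a lipid carrier gene on chromosome 7 (19696109 to 19699188), was at 29.7 CPM (72 UMIs) in 2NBDG+ and 349 CPM (1426 UMIs) in 2NBDG- cells, 11.8-fold lower (9.29 to 15.1). In 2NBDG- cells 5% of the cells held 79.7% of the Apoe UMIs, 1 of them 327, and with the cap at the 99th percentile the log2 ratio was -2.30 instead of -3.56. Crisp3, a secreted cysteine-rich protein gene, had 2 UMIs in 2NBDG+ and 118 UMIs in 2NBDG- cells, where all came from the top 5% of cells. Ltb, the lymphotoxin beta subunit, was at 21.8 and 60.3 CPM (2.76-fold lower, 2.04 to 3.79), and Plac8, a small cysteine-rich protein gene, at 87.3 and 217 CPM (2.48-fold lower, 2.13 to 2.90). Cd52, a lipid-anchored surface glycopeptide, was at 907 and 2072 CPM (2.28-fold lower, 2.18 to 2.39) and had the most UMIs of the lower genes outside the library division.

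Further lower genes were Atp1b1, a subunit of the sodium pump (9.89 and 34.1 CPM, log2 -1.78), Nucb2, a calcium-binding secreted protein gene (15.2 and 52.2 CPM, log2 -1.78), and the predicted genes Gm8369 (13.6 and 115 CPM, log2 -3.08) and BE692007 (13.6 and 54.6 CPM, log2 -2.01). Gstp1, a glutathione transferase gene, was at 107 and 328 CPM (log2 -1.62). The pseudogene Ftl1-ps1 was at 150 and 710 CPM (log2 -2.24), while Ftl1 itself was near equal. Fam214a was at 284 and 1116 CPM (log2 -1.97). Its level was also low in B220+2NBDG- cells, at 396 CPM against 665 to 769 CPM in the remaining libraries, and it counts among the 37 genes of the library division.

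Most tested genes of glycolysis differed little by 2NBDG. Slc2a1, the glucose transporter GLUT1, had 23 UMIs (9.47 CPM) in 2NBDG+ and 36 UMIs (8.82 CPM) in 2NBDG- cells, a ratio of 1.07 (0.608 to 1.86). Hk2, an inducible hexokinase that traps glucose in the cell, had 19 and 11 UMIs, a ratio of 2.90 (1.31 to 6.76) at a level too low to be tested. Of 26 genes of glucose uptake and glycolysis, 11 could be tested, with a median log2 ratio of 0.00. No glucose transporter or hexokinase gene of the list reached the level needed for testing. The median thus covers enzymes of later steps and does not describe uptake genes. Aldoa (386 and 373 CPM), Gapdh (339 and 307 CPM), Pkm (181 and 182 CPM) and Ldha (77.4 and 85.3 CPM) lay within 0.15 log2 of equal, while Eno1, which encodes enolase, was at 47.8 and 76.2 CPM (log2 -0.67). Of these 11 only Pgk1, which encodes phosphoglycerate kinase, passed 2-fold, at 21.8 and 56.8 CPM (log2 -1.38). Pgk1 was at 39.9 CPM in the B220+2NBDG-, 64.5 CPM in the B220+2NBDG+ and 71.0 CPM in the bone marrow library. It was thus lowest in the libraries set apart by the division, though it fell short of the 1.5-fold limit for counting among its genes. Outside the list, the phosphoglycerate mutase gene Pgam2 was 2.06-fold higher in 2NBDG+ cells (89.0 and 43.1 CPM, 1.68 to 2.53). In B220+ IgM cells Pgam2 was at log2 0.12. Rpia, the pentose phosphate enzyme that isomerizes ribose 5-phosphate, was 2.07-fold higher (109 and 52.4 CPM, 1.73 to 2.50), while the other 4 tested genes of that pathway ranged from -0.30 to 0.01 log2.

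Most listed genes of secretion and energy metabolism were near equal. The median log2 ratio was -0.01 for 21 tested genes of the tricarboxylic acid cycle, 0.08 for 36 nuclear genes of oxidative phosphorylation, -0.14 for 25 of the unfolded protein response, 0.04 for 27 of protein translocation and transport, 0.03 for 21 of glycosylation and -0.01 for 27 of the proteasome, and none of these genes differed 2-fold. Of 12 tested genes of the mitochondrial genome, with a median of 0.13, mt-Atp8 was lower, at 110 and 829 CPM (log2 -2.91). The ATP synthase genes Atp5g2 (27.2 and 184 CPM, log2 -2.76) and Atp5l (64.3 and 275 CPM, log2 -2.10), which are outside the oxidative phosphorylation list, were lower as well, and all 3 are genes of the library division. Among 19 tested genes of the integrated stress response and amino acid supply 15 lay above 0 (49.7% of all tested genes did), with a median of 0.13. Asns, which makes asparagine, was at 216 and 140 CPM (log2 0.63), and Slc3a2, the heavy subunit of amino acid transporters, at 2969 and 2341 CPM (log2 0.34). Of 12 tested interferon-induced genes 10 lay above 0, with a median of 0.21, and Ifitm3 was the only one past 2-fold. The 12 tested survival genes had a median of -0.19 (0.06 with all UMIs as the total). The kinase gene Pim2 was at 83.6 and 160 CPM (log2 -0.94) and Bcl2l11, which encodes the death factor Bim, at 13.2 and 26.0 CPM (log2 -0.98), while Tnfrsf17, the survival receptor BCMA, was at 376 and 346 CPM (log2 0.12). A list of 15 secreted, surface and related genes, drawn up from earlier results of these data, went both ways, with a median of 0.34. Of 12 tested, Slpi, Ctsw and Hes1 were 2-fold higher and Apoe and Plac8 2-fold lower. Of all tested genes, 0.951% were higher and 1.41% lower.

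**Figure D2:**
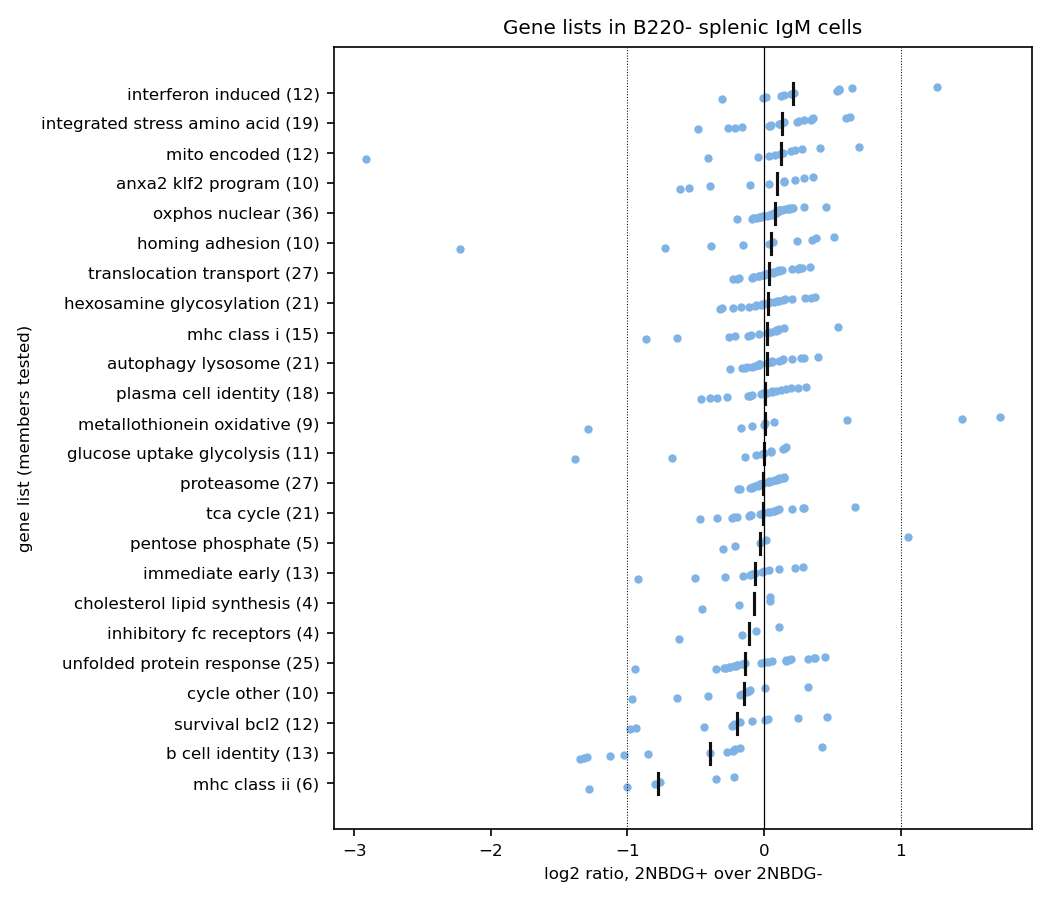
Each blue point is a tested gene by its log2 ratio of 2NBDG+ over 2NBDG- in B220- splenic IgM cells, grouped by gene list with the number tested in brackets, and black bars are list medians. The class II and B cell identity lists have the lowest medians (-0.78 and -0.40), and the other medians drawn lie between -0.19 and 0.21. Lists with fewer than 4 tested genes, markers of other cell types, ribosomal proteins and the list of secreted and surface genes are not drawn.

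Counts per cell show how widely each difference was spread. Each cell was thinned to 1500 non-immunoglobulin UMIs, which left out 16 and 76 shallower cells and kept 542 and 995. Slpi was then detected in 87.6% (84.6 to 90.3) of 2NBDG+ and 65.4% (62.4 to 68.4) of 2NBDG- IgM cells, with medians of 5 and 1 UMIs per cell (93.7% and 82.6% unthinned). Trf was detected in 51.7% and 26.7% of cells (84.4% and 51.2% unthinned), Mt1 in 34.9% and 13.3% (51.4% and 24.4%) and Mt2 in 21.4% and 6.13% (38.2% and 11.5%). For the lower genes, Cd52 was detected in 48.0% (43.7 to 52.3) and 76.4% (73.6 to 79.0) of cells (68.6% and 87.7% unthinned) and Ms4a1 in 14.9% and 30.3% (33.0% and 51.3%). Apoe was detected in 3.69% and 16.3% of cells (8.24% and 27.4% unthinned).

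Shares in IgA cells of the same libraries are given beside those in IgM cells. IgA cells can express these genes themselves, so their shares are no measure of free RNA. In thinned IgA cells, 211 from the 2NBDG+ and 120 from the 2NBDG- library with median depths of 4673 and 4300 non-immunoglobulin UMIs (4293 and 3578 in IgM cells), Apoe was detected in 0.948% and 0.833% and Ms4a1 in 3.79% and 4.17%, below the shares in IgM cells. Cd52 was detected in 34.1% and 56.7% of IgA cells. Ebf1 was detected in 12.8% and 8.33% of IgA against 3.69% and 8.34% of IgM cells, and H2-Aa in 5.21% and 15.0% against 7.01% and 11.3%. The IgM shares of Ebf1 and H2-Aa were thus not clearly above the IgA shares in both libraries. Summed over 8 B cell genes (Ebf1, Ms4a1, Blk, Fcmr, H2-Ob, Cd83, Cd79b and Cd37, several of them chosen for being lower), 25.8% (22.2 to 29.7) of 2NBDG+ and 13.4% (11.3 to 15.6) of 2NBDG- IgM cells had 0 UMIs after thinning. Between 3 and 9 such UMIs were found in 20.1% and 35.8% of cells, and 10 or more in 0 of 542 cells, which allows up to 0.554%, and in 1 of 995. In IgA cells the same sum was 0 in 36.0% and 22.5% and 3 to 9 in 10.9% and 23.3% of cells, so it was lower on the 2NBDG+ side there too. In IgM cells the summed UMIs were thus spread thinly over many cells, with few cells high. The sum averaged 1.48 UMIs per 2NBDG+ and 2.19 per 2NBDG- IgM cell. Outside Cd79b and Cd37, Ms4a1 gave the most of it, at 0.181 and 0.393. Since Cd79b differed little, the sum does not show how each lower gene was spread over cells. How much of the summed UMIs was free RNA was not tested. Mt1 and Mt2 together had 0 UMIs in 56.6% and 83.8% of cells and at least 3 in 70 and 35 cells.

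**Figure D3:**
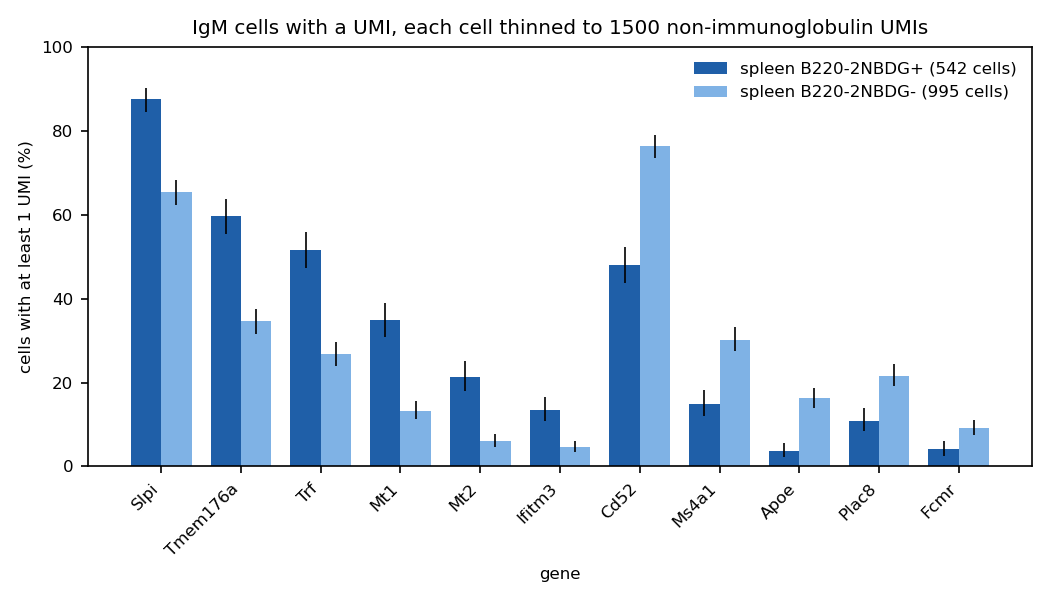
Bars give the percent of B220- splenic IgM cells with at least 1 UMI of each gene after every cell was thinned to 1500 non-immunoglobulin UMIs, for 542 cells of the 2NBDG+ and 995 of the 2NBDG- library, with exact 95% binomial intervals for counting error. Slpi (87.6% and 65.4%), Tmem176a, Trf, Mt1, Mt2 and Ifitm3 were found in more 2NBDG+ cells, and Cd52 (48.0% and 76.4%), Ms4a1, Apoe, Plac8 and Fcmr in more 2NBDG- cells.

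Antibody transcripts also differed between the 2 libraries. Ighm took 18.2% of all UMIs in 2NBDG+ and 13.7% in 2NBDG- cells, with medians of 1715 and 1207 UMIs per cell, and Igkc, the kappa constant gene, took 36.1% in both. Lambda cells, called from Iglc2, were 13 of 549 called 2NBDG+ cells (2.37%, 1.27 to 4.02) and 113 of 1022 called 2NBDG- cells (11.1%, 9.20 to 13.1). The higher share was that of the B220-2NBDG- library alone. Lambda cells were 1.67% of called IgM cells in B220+2NBDG-, 0.230% in B220+2NBDG+ and 1.37% in bone marrow. Kappa variable (Igkv) transcripts took 1.24% of UMIs in 2NBDG+ and 6.35% in 2NBDG- cells. That share follows the library division, at 0.561% in B220+2NBDG- cells, 3.82% in B220+2NBDG+ cells and 3.50% in bone marrow. A leading Igkv gene, with at least 70% of at least 10 Igkv UMIs, could be called in 257 of 558 (46.1%) and 807 of 1071 (75.4%) cells. Shares of called cells, counts of Igkv genes and classes of cells by Igkv gene are thus not like for like between the libraries. For Igkv transcripts the division and 2NBDG cannot be told apart.

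Igkv3-4 led in 156 of the 257 called 2NBDG+ cells (60.7%) and 117 of the 807 called 2NBDG- cells (14.5%), which is 27.96% and 10.9% of all cells of each library's set. In B220+ IgM cells it led in 51.6% and 29.4% of called 2NBDG+ and 2NBDG- cells, and in bone marrow in 2.65%. Igkv1-135 led in 7 and 57 and Igkv1-117 in 1 and 52 of the B220- cells, and in all 37 and 66 different Igkv genes led. In B220+2NBDG-, B220+2NBDG+ and bone marrow IgM cells Igkv1-135 led in 9, 2 and 2 cells and Igkv1-117 in 4, 1 and 3. How many of the pooled mice gave the cells behind each share is not given in the sources used here.

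Within cells called Igkv3-4, chosen after the data were seen, the Slpi difference was small. Slpi was at 8681 CPM in 156 2NBDG+ and 7854 CPM in 117 2NBDG- cells (log2 0.14, 0.09 to 0.20). In cells led by another Igkv gene Slpi was at 5653 and 2218 CPM (log2 1.35), and in cells with no called Igkv gene at 4471 and 1618 CPM (log2 1.47). The higher Slpi level of Igkv3-4 cells was thus present in both libraries, and the 2NBDG log2 ratio was larger in the other cells. Tmem176a (680 and 610 CPM, log2 0.16) and Spon1 (83.3 and 93.4 CPM, log2 -0.17) were likewise near equal within Igkv3-4 cells. In B220+ Igkv3-4 cells the near-equality of Slpi and Tmem176a was not seen: Slpi was at 9024 and 5324 CPM (log2 0.76, 0.69 to 0.83) and Tmem176a at 456 and 283 CPM (log2 0.69, 0.39 to 0.99). Spon1 was at 89.97 and 17.8 CPM in cells led by another Igkv gene.

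Other differences were present within Igkv3-4 cells too. Trf was at 594 and 295 CPM (log2 1.01), Mt1 at 369 and 150 CPM (log2 1.30) and Mt2 at 182 and 65.2 CPM (log2 1.48). Cd52 was at 326 and 912 CPM (log2 -1.48) and Plac8 at 79.1 and 172 CPM (log2 -1.12). Ms4a1 was at 38.9 and 76.0 CPM (log2 -0.97), Fcmr at 36.1 and 78.2 CPM (log2 -1.12) and Apoe at 11.1 and 58.6 CPM (8 and 27 UMIs, log2 -2.40). Hes1 rested on 21 and 3 UMIs there, a log2 ratio of 2.16 (0.42 to 4.55). Without the Igkv3-4 cells Slpi was at log2 1.22, while Cd52 and Ms4a1 fell short of 2-fold.

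The same contrast in B220+ splenic IgM cells, 436 2NBDG+ and 605 2NBDG- cells, uses 2 other libraries. There 40 of 3843 tested genes (1.04%) were 2-fold higher and 64 (1.67%) lower. The balance depended on the total: with all UMIs the same genes split into 20 higher and 204 lower (10 and 113 of the 2087 that could still be tested), and without Jchain in the total 58 of 4117 tested genes were higher and 58 lower. Slpi, Mt2 and Ifitm3 were past 2-fold higher in both pairs, which is 8.57% of the 35 genes higher in B220- cells and 7.5% of the 40 in B220+ cells. Apoe, Gm8369, BE692007, Atp1b1, Ltb, Plac8 and Cd52 were past 2-fold lower in both, 13.5% of 52 and 10.9% of 64 genes. A further 31 genes were past 2-fold in opposite directions, 4 of them outside the library division. Of the 35 higher genes, 29 were tested in the B220+ pair and 9 of these lay above 0 there. Without the library division it was 9 of 17. Of the 52 lower genes, 45 were tested there and 19 lay below 0, or 19 of 26 without the division. Across the 3487 genes tested in both pairs Pearson's r of the log2 ratios was -0.19, and without the 37 genes of the library division it was 0.15 over 3454 genes, which are not independent and share depth and scaling within a library. The median log2 ratio of all genes was -0.10 in the B220+ pair.

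Sizes differed between genes. In B220+ IgM cells Slpi was at 7829 and 3880 CPM (log2 1.01), Ifitm3 at 96.7 and 42.5 CPM (log2 1.19) and Mt2 at 59.0 and 14.4 CPM (log2 2.03). Mt1 stood at 148 and 131 CPM there (log2 0.17) and Trf at 333 and 242 CPM (log2 0.46), so that neither passed 2-fold in that pair. Cd52 was at 1668 and 4651 CPM (log2 -1.48), Plac8 at 210 and 509 CPM (log2 -1.28) and Ltb at 34.1 and 131 CPM (log2 -1.94). Ms4a1, Fcmr, Blk and Ebf1 were at -0.81, -0.81, -0.64 and -0.79, below 0 and short of 2-fold, and the difference between the pairs was not tested. The class II gene H2-Aa was at 373 and 729 CPM (log2 -0.97), above its level of 58.1 and 116 CPM in B220- cells on both sides of the 2NBDG gate.

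**Figure D4:**
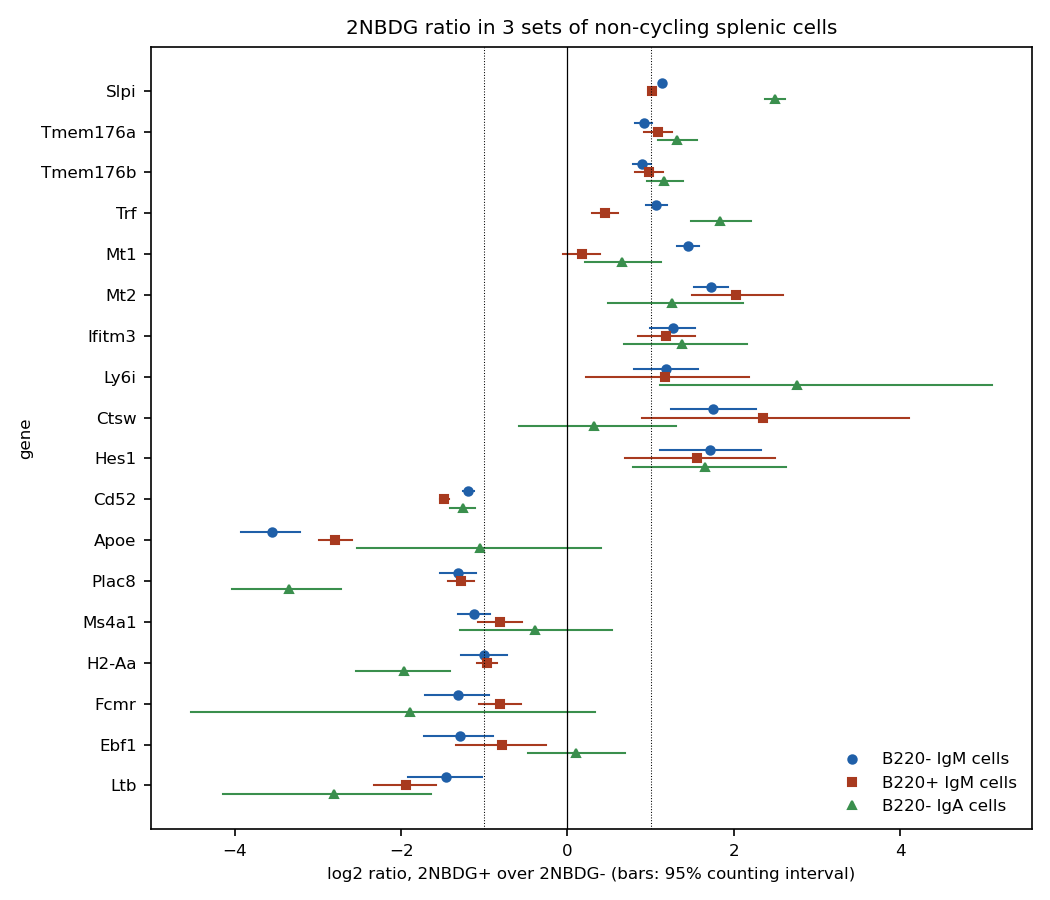
Log2 ratio of 2NBDG+ over 2NBDG- for 18 genes in B220- IgM cells (blue circles), B220+ IgM cells (red squares) and IgA cells of the B220- libraries (green triangles), with 95% counting intervals, and dotted lines at 2-fold. Counts under 3 were raised to 3, and a gene with at most 3 UMIs on both sides is not drawn. Slpi, Mt2, Ifitm3, Hes1 and Ly6i lie above 1 and Cd52, Plac8, Ltb and Apoe below -1 in each set. Hes1, Ly6i, Ltb and Apoe were below the level needed for testing in some sets.

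IgA cells of the same B220- libraries, 214 2NBDG+ and 128 2NBDG- cells, were set beside them as a description, since they share both libraries. There 48 of 1531 tested genes (3.14%) were 2-fold higher and 183 (12.0%) lower, and the median log2 ratio was -0.35. The balance turned without Jchain in the total, with 105 higher and 88 lower, and was 87 and 96 with TMM factors, and the IgA ratios that follow are not corrected for this median. In IgA cells the log2 ratio was 2.50 for Slpi, 1.84 for Trf, 1.32 for Tmem176a and 1.26 for Mt2, and -3.35 for Plac8, -1.97 for H2-Aa and -1.26 for Cd52. Ms4a1 and Ebf1, lower in 2NBDG+ IgM cells, were at -0.39 and 0.10 in IgA cells. Anxa2, a calcium-dependent membrane binding protein gene, had 2 UMIs in 2NBDG+ and 331 UMIs in 2NBDG- IgA cells, 2.02 and 624 CPM, a log2 ratio of -7.68 with the lower count raised to 3 (fold interval 69.7 to 1001). In IgM cells it had 1 UMI in 2NBDG+ and 21 UMIs in 2NBDG- cells, 0.412 and 5.14 CPM. Vim, the intermediate filament vimentin, was at log2 -4.45 in IgA cells and at 11.1 and 12.7 CPM (log2 -0.20) in IgM cells.

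In 294 IgM cells of the bone marrow B220-2NBDG+ library, Slpi was at 9194 CPM, Mt1 at 2078 CPM and Mt2 at 733 CPM, each above the 2NBDG+ splenic level. Plac8 (39.7 CPM), Apoe (7.95 CPM), Fcmr (17.0 CPM) and H2-Aa (46.6 CPM) were below both splenic B220- levels. Cd52 did not follow this order, at 5705 CPM in bone marrow. Ms4a1, at 137 CPM, lay between the splenic levels of 115 and 251 CPM.

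**Figure D5:**
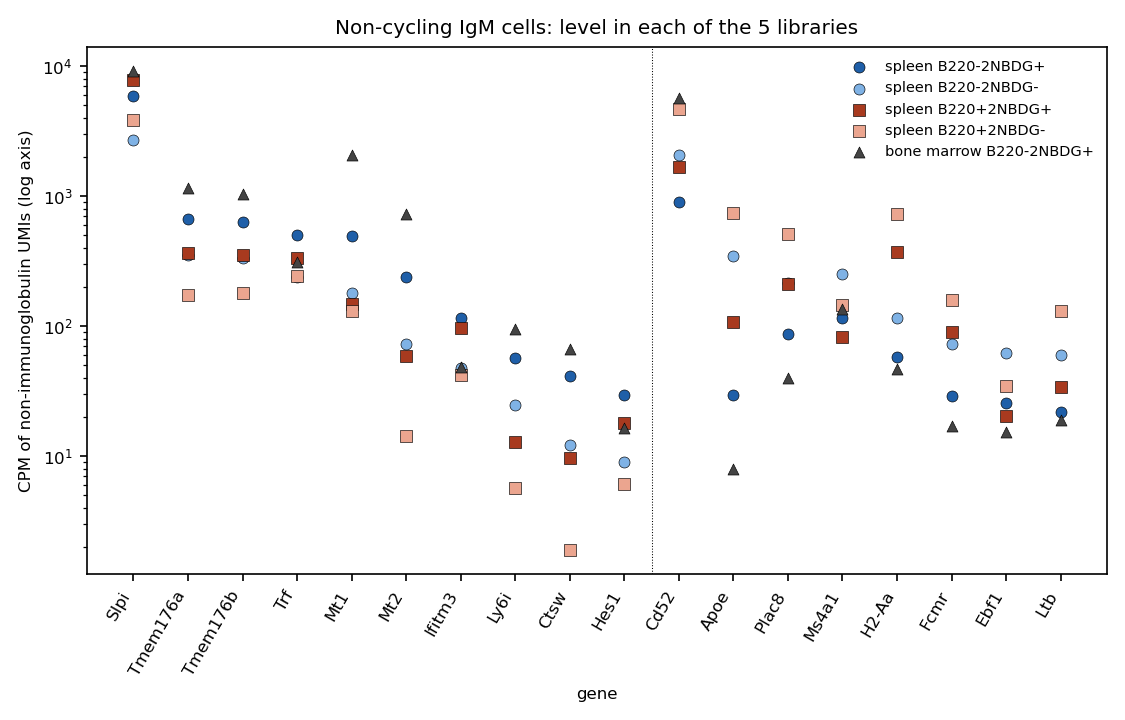
Level of 18 genes (CPM of non-immunoglobulin UMIs, log axis) in the non-cycling IgM cells of each of the 5 libraries, 1 symbol per library. Genes left of the dotted line were higher in B220-2NBDG+ than in B220-2NBDG- spleen cells and genes right of it lower, and bone marrow (triangles) lies highest for Slpi, Tmem176a, Tmem176b, Mt1, Mt2, Ly6i, Ctsw and Cd52.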

How the data were processed

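Per the labels, 10x Genomics 3' version 2 libraries were made from sorted plasma cells. The deposited tables hold raw UMI counts per gene (33456) and cell barcode, with Cell Ranger 2.1 and GRCm38 named in the submitters' processing notes. For the annotation and the barcode filter, nothing is given in the sources used here. A total of 32655 genes were placed with GENCODE M21, and 266 immunoglobulin genes were left out of totals.

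Counts were summed over member cells of a library and divided by its non-immunoglobulin UMIs (CPM). A gene counted as 2-fold apart when its ratio was at least 2 and the higher of the libraries had at least 25 CPM and 50 UMIs, with counts under 3 raised to 3. Intervals are exact 95% binomial ones (Clopper-Pearson for shares, conditional on the sum for ratios). Scrublet (scanpy 1.11.5) predicted 8 and 9 doublets among the members, which were kept. Named genes were the 12 highest and 12 lowest, those past 2-fold in both IgM pairs, up to 4 per gene list and a fixed set. Spon1, Fam214a, Prdm1, Pgam2 and list members given as examples were named after their values were seen. Members and the 36 lists were chosen with earlier results of these data known. Values of 3 genes are not reported here by name. The ratio and its intervals were tested on simulated data. TMM factors came from edgeR 4.0.16 (R 4.3.3).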

Additional observations from a re-analysis of the deposited data

Results flagged for a closer look

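A set of 31 genes was at least 2-fold apart by 2NBDG in B220- splenic IgM cells and at least 2-fold apart the other way in B220+ splenic IgM cells. Values are given for 30 of them. Each pair of values below gives the log2 ratio of 2NBDG+ over 2NBDG- in B220- cells first and in B220+ cells second. Each pair of libraries has 1 library a side, so the difference between the pairs was not tested.

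Outside the library division the genes were Gm9493 (1.02 and -1.17), Gm10036 (1.11 and -1.64), Rnaset2b (1.98 and -1.10) and Rpl24 (1.13 and -1.01). Rnaset2b encodes a lysosomal ribonuclease and Rpl24 a ribosomal protein, and Gm9493 and Gm10036 are predicted genes.

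The other 26 genes given belong to the division of B220-2NBDG+ and B220+2NBDG- cells from the remaining libraries at 1.5-fold, which gives opposite signs in the pairs by construction. Those higher in B220-2NBDG+ cells that are pseudogenes, predicted genes or a microRNA locus were Rps18-ps3 (3.46 and -5.48), Rps10-ps1 (1.97 and -2.14), Gm10263 (2.85 and -1.71), Gm10221 (1.23 and -1.39), Rpl7a-ps5 (2.70 and -2.86), Mir682 (4.12 and -4.50), Rpl23a-ps3 (1.06 and -2.20), A530040E14RIK (1.01 and -1.02), Gm6133 (3.26 and -2.26) and Gm17541 (1.08 and -1.97). The remaining ones higher there were Wdr89 (1.65 and -2.46) and Rnaset2a (2.25 and -1.72). Those lower there and higher in B220+2NBDG+ cells were Dynlt1c (-1.94 and 1.71), Nme2 (-2.46 and 3.35), Wdr33 (-1.31 and 1.10), Gins1 (-2.73 and 2.46), Atp5l (-2.10 and 1.94), Isca1 (-1.15 and 1.06), Gm10076 (-2.34 and 1.18), Atp5g2 (-2.76 and 2.54), Hist2h2aa1 (-3.31 and 4.68), mt-Atp8 (-2.91 and 1.74), Grcc10 (-1.45 and 1.20), Gm10709 (-1.97 and 1.54), Cox16 (-1.69 and 1.15) and Gm9320 (-2.86 and 2.19). Among these Nme2 encodes a nucleoside diphosphate kinase, Atp5g2, Atp5l and mt-Atp8 encode subunits of the mitochondrial ATP synthase, Cox16 encodes an assembly factor of cytochrome oxidase and Hist2h2aa1 a histone. The cause of the division was not tested.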

How the results depend on the processing

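The 2-fold counts moved most with the level needed for testing. In B220- IgM cells, 99 genes were higher and 296 lower with at least 20 UMIs and no CPM minimum, and 20 and 21 with at least 100 CPM and 200 UMIs. With all UMIs as the total 40 of 1773 genes were higher and 21 lower. When the same 3679 genes were kept, a setting chosen after seeing the data, 67 were higher and 42 lower. Without genes of the library division at 1.5-fold 23 were higher and 31 lower. In B220+ IgM cells the same settings gave 132 and 217 (no CPM minimum), 14 and 32 (100 CPM), 10 and 113 (all UMIs), 20 and 204 (all UMIs, same genes) and 22 and 51 (without the division). In IgA cells they gave 146 and 385, and 12 and 69, with 105 and 88 when Jchain was left out of the total and 87 and 96 with TMM factors. All UMIs as the total shifted the median log2 ratio by 0.25, -0.35 and -0.10 in these comparisons, and leaving out Jchain by 0.01, 0.14 and 0.36.

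Within Igkv3-4 cells alone Cd83 (0.13), Rnps1 (0.52) and Spon1 (-0.17) changed sign, on fewer cells; that setting and the exclusion of Igkv3-4 cells were chosen after seeing the data. Slpi, Mt1, Mt2, Ifitm3, Trf, Spon1, Apoe, Plac8, Fcmr, Gstp1 and Gm8369 stayed past 2-fold in each of 12 settings other than Igkv3-4 cells alone, where Slpi was at 0.14. Calls were lost in 3 settings for Ms4a1 and Hes1, in 4 for Crisp3 and Rpia and in 6 for H2-Aa and Fgl2. Leaving out cells of the commonest Ighv gene was not run, because a leading Ighv gene was called in 0 and 20 cells. No paired analysis was possible because the labels carry no replicate numbers and each group is 1 library. Genes under 50 UMIs in both libraries, Slc2a1 and Hk2 among them, lay below the level needed for testing.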
